A study of Macaca mulatta with 18 samples.

Results

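The MHC class II presentation genes were followed in the skeletal muscle of male rhesus monkeys of 3 ages. The members were chosen by name: HLA-DRA, HLA-DRB1, HLA-DPA1, HLA-DPB1, HLA-DQA1, HLA-DQB1, HLA-DMA, HLA-DMB, CD74 and CIITA, 10 genes in a study whose probes carry 20046 gene symbols. Of the 47323 probes on the array, 12 carried 1 of these symbols alone, and they covered 9 of the 10 genes. No probe carried HLA-DQA1 alone. Vastus lateralis biopsies came from 6 young (6.00 ± 0.00 years), 6 middle-aged (16.48 ± 0.31 years) and 6 old animals (26.83 ± 0.22 years, mean ± SEM), all housed individually on standard chow. Each animal was 1 array, and the comparisons were old with young, old with middle-aged and middle-aged with young. The arrays were Sentrix Human HT-12 BeadChips, whose probes are written for human transcripts, so brightness reflects how well a monkey transcript fits the human probe as well as its amount. Of the 10 members, 8 have a gene under the same or the corresponding MAMU name in the rhesus RefSeq table (T2T-MMU8v2.0), for example MAMU-DRA and MAMU-DMA. HLA-DRB1 and HLA-DPB1 were not matched there.

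MHC class II molecules are dimers of an α and a β chain that display peptides from endocytosed proteins to CD4+ T cells. The invariant chain CD74 escorts new dimers to the endosome and holds their groove, where HLA-DM exchanges its remnant for antigenic peptide. CIITA, the master regulator of the family, switches these genes on in dendritic cells, B cells and macrophages, and in other cells under interferon-gamma. In resting skeletal muscle the molecules are found mainly on interstitial leukocytes and on the capillary endothelium, and little on the fibres. The β chains are among the most polymorphic genes of primates.

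Muscle RNA was evident on every array: all 9 muscle fibre markers were measured, and their summed intensity lay between 103716 and 161960 for the young, 82874 and 128011 for the middle-aged and 116984 and 146172 for the old animals. The share of probes detected (detection p under 0.05) lay between 26.8 and 30.5% for the young, 24.5 and 28.8% for the middle-aged and 26.0 and 28.7% for the old animals, and 6 arrays per age set the precision. Any 2 arrays correlated at r = 0.92 to 0.98 over the 14188 probes that were tested. Young replicate 6 and old replicates 1 and 2 had stood apart from the others in earlier work on these data, and results that rest on them are also given without them. For the tests, each array was brought to the same mean and spread. This gives a log2 level that is 0 at the mean of an array, and differences in it read as log2 fold changes. Probes detected on 6 or more of the 18 arrays were tested, which left 14188 probes in all and 8 of the 12 class II probes, for 6 genes.

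No tested class II probe passed the test between ages. In limma with Benjamini-Hochberg adjustment over all tested probes, 0 of 8 passed between old and young (background 0.19% of all tested probes), 0 of 8 between old and middle-aged (background 0.874%) and 0 of 8 between middle-aged and young animals (background 0.0211%). A test of any difference among the 3 ages likewise called 0 of 8, against 0.529% of all probes. With so few calls among all probes, 0 of 8 is close to the background and does not set the class II genes apart. At an unadjusted p under 0.05 the counts were 0, 0 and 1 of 8, against 11.1, 17.5 and 10.4% of all probes. The ranges of 2 ages overlapped for each of the 8 probes in each comparison. Among all probes, 0.973% had no overlap between old and young, 1.93% between old and middle-aged and 0.789% between middle-aged and young animals.

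The median log2 fold change of the 8 probes was -0.0028 between old and young, 0.05 between old and middle-aged and -0.03 between middle-aged and young animals. The medians over all tested genes, each by its brightest tested probe, were -0.0070, 0.02 and -0.03. By that same rule the medians of the 6 class II genes were -0.03, -0.0067 and -0.03. Of the 8 probes, 4, 5 and 3 had a fold change above 0, against 48.9, 53 and 46.9% of all probes. The comparisons share animals, so these counts are not independent. Without young replicate 6 and old replicates 1 and 2, the medians of the 8 probes were 0.25, 0.04 and 0.13, again with 0 of 8 called in each comparison.

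**Figure D1:**
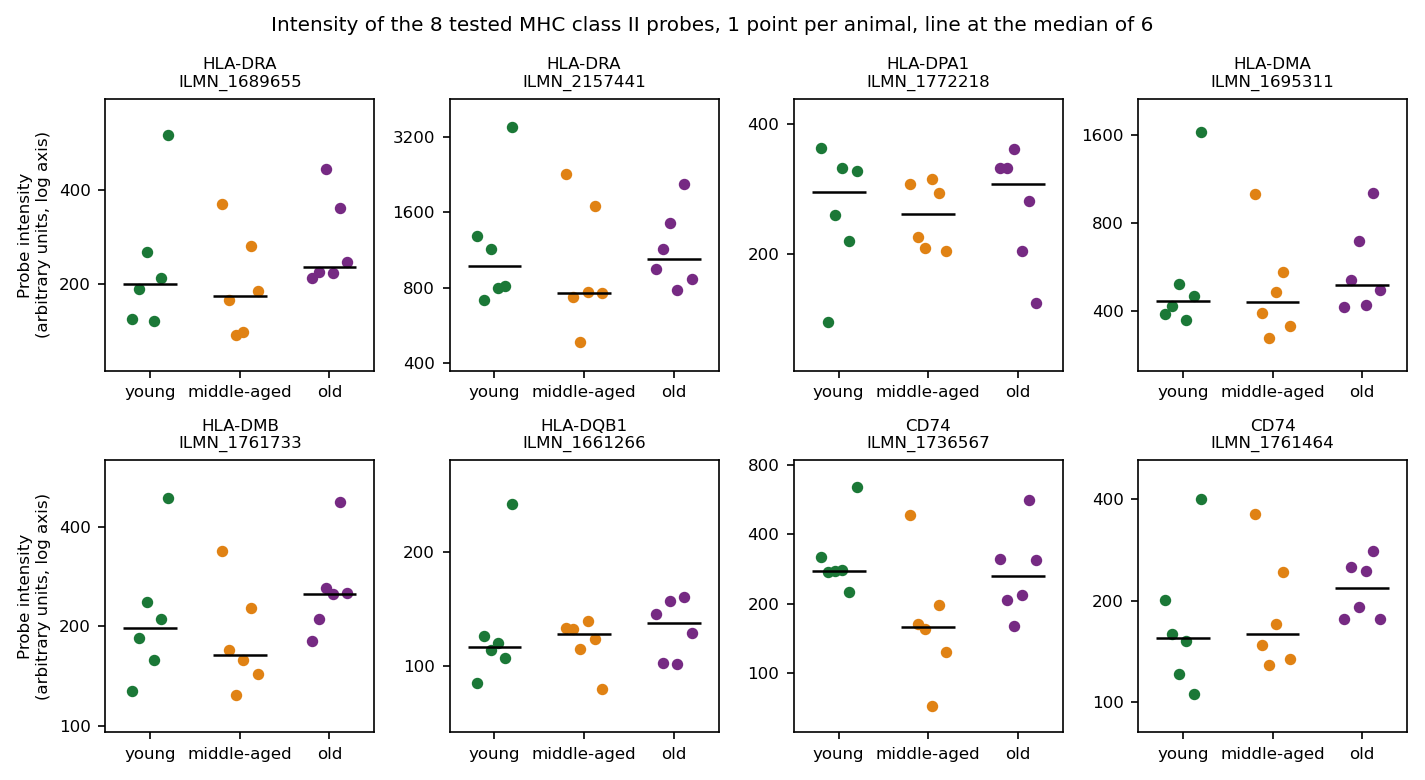
Intensity (arbitrary units, log axis) of the 8 tested MHC class II probes in 6 young, 6 middle-aged and 6 old animals, 1 point per animal, with a line at the median. The ages overlap in every panel, and young replicate 6 lies highest of its age in 7 of the 8, at 3500 for HLA-DRA ILMN_2157441.

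HLA-DRA encodes the α chain of the DR molecule, and 2 probes measured it on all 18 arrays. Probe ILMN_2157441 had intensities of 714 to 3500 (median 982) across the young animals, 484 to 2286 (median 766) across the middle-aged and 784 to 2072 (median 1048) across the old. Each age held low and high animals, and the highest and lowest of the 18 were 7.23-fold apart. Its log2 fold change was -0.08 ± 0.35 between old and young (SE; 95% interval -0.81 to 0.65; adjusted p in limma = 0.965). It was -0.07 ± 0.35 between old and middle-aged (adjusted p in limma = 0.940) and -0.0057 ± 0.35 between middle-aged and young animals (adjusted p in limma = 0.997). The interval for old against young therefore leaves room for a fold of 0.569 to 1.57. Without young replicate 6, the old-to-young value was 0.17 (adjusted p in limma = 0.864), on the other side of 0.

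The other HLA-DRA probe, ILMN_1689655, read 153 to 597 (median 201) across the young animals, 138 to 360 (median 184) across the middle-aged and 209 to 464 (median 227) across the old. Its lowest old animal lay above the lowest of the other ages, but the ranges overlapped. The log2 fold change was 0.18 ± 0.28 between old and young (adjusted p in limma = 0.874) and 0.26 ± 0.28 between old and middle-aged animals (adjusted p in limma = 0.670). The 2 probes followed each other over the 18 animals (Pearson r = 0.82, Spearman rho = 0.82, adjusted permutation p = 0.00021 and 0.0007). Their difference within an animal did not pass between any 2 ages (exact two-sided permutation tests, adjusted p = 0.358 to 0.802).

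The β chain of DR, HLA-DRB1, was represented by 1 probe, ILMN_1715169, which was detected on 4 of the 18 arrays, 1 young and 3 old. Intensities spanned 78 to 120 for the young, 80 to 105 for the middle-aged and 90 to 134 for the old animals, near the median intensity of an array, which was 71 to 97. No age comparison was made for it in the main fit. HLA-DPB1, the β chain of DP, was below detection on all 18 arrays at 59 to 102. Such values give no level for the monkey transcript, since a human probe that fits it poorly would read the same.

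HLA-DPA1, the α chain of DP, was measured on all 18 arrays by ILMN_1772218. Its intensities were 139 to 351 (median 278) across the young animals, 203 to 297 (median 247) across the middle-aged and 154 to 350 (median 290) across the old. The middle-aged animals lay within the ranges of both other ages and were the least spread, with an SD of the log2 level of 0.23 against 0.50 in young and 0.52 in old animals. The log2 fold changes were -0.02 ± 0.23 between old and young, -0.12 ± 0.23 between old and middle-aged and 0.10 ± 0.23 between middle-aged and young animals (adjusted p in limma = 0.991, 0.845 and 0.913).

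HLA-DQB1, the β chain of DQ, was dim. Probe ILMN_1661266 was detected on 16 of the 18 arrays, at 90 to 267 (median 113) across the young animals, 87 to 131 (median 122) across the middle-aged and 101 to 152 (median 130) across the old. Young replicate 6 alone lay above 152. The log2 fold change was -0.04 ± 0.17 between old and young, 0.01 ± 0.17 between old and middle-aged and -0.05 ± 0.17 between middle-aged and young animals. The 95% interval of -0.40 to 0.32 for old against young was the narrowest among the 8 class II probes.

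HLA-DMA and HLA-DMB form the DM molecule, which catalyses peptide loading. HLA-DMA ILMN_1695311 read 373 to 1629 (median 431) across the young animals, 324 to 1006 (median 429) across the middle-aged and 412 to 1008 (median 491) across the old. A single animal of each age lay at 1006 or above, and the rest overlapped closely. The log2 fold change was 0.01 ± 0.28 between old and young (95% interval -0.58 to 0.60), -0.03 ± 0.28 between old and middle-aged and 0.04 ± 0.28 between middle-aged and young animals.

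HLA-DMB ILMN_1761733 read 127 to 490 (median 198) across the young animals, 124 to 339 (median 164) across the middle-aged and 180 to 477 (median 252) across the old. The old animals had the highest median and the highest minimum, but both younger ages held animals above most old ones. The log2 fold change was 0.23 ± 0.24 between old and young (adjusted p in limma = 0.804) and 0.34 ± 0.24 between old and middle-aged animals (95% interval -0.17 to 0.85; adjusted p in limma = 0.490).

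**Figure D2:**
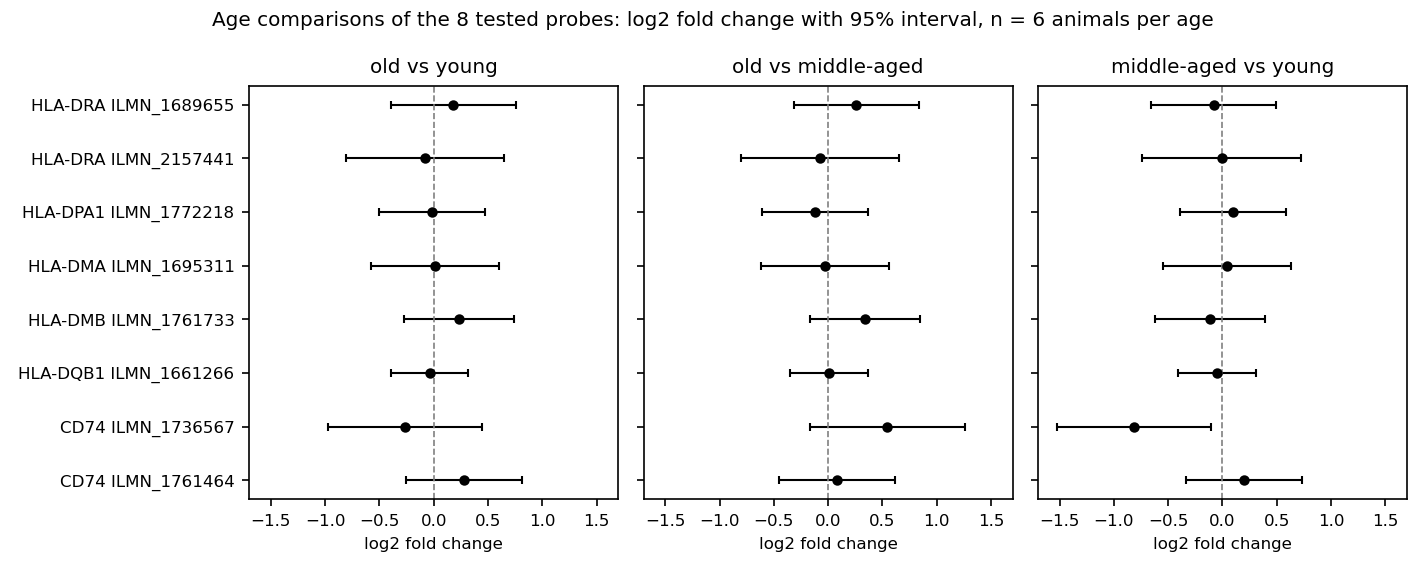
Log2 fold change with its 95% interval for the 8 tested class II probes (rows) in the comparisons old with young, old with middle-aged and middle-aged with young (6 animals per age, limma). The only interval that does not include 0 is that of CD74 ILMN_1736567 between middle-aged and young animals, -1.52 to -0.10, which did not pass the adjustment.

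CD74 had 3 probes, and they disagreed. ILMN_1736567 read 225 to 645 (median 279) across the young animals, 72 to 486 (median 160) across the middle-aged and 161 to 566 (median 264) across the old. All middle-aged animals but replicate 1 lay below every young animal, and middle-aged replicate 4, at 72, was not detected. Its log2 fold change between middle-aged and young animals was -0.81 ± 0.34 (95% interval -1.52 to -0.10), the single class II interval without 0 (adjusted p in limma = 0.412). Between old and young it was -0.27 ± 0.34 and between old and middle-aged animals 0.55 ± 0.34 (adjusted p in limma = 0.849 and 0.420). Without middle-aged replicate 1 the value for middle-aged against young was -1.09 (adjusted p in limma = 0.195). Without young replicate 6 it was -0.66 (adjusted p in limma = 0.474), and with each animal left out in turn it spanned -1.09 to -0.57.

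CD74 ILMN_1761464 read 106 to 399 (median 156) across the young animals, 129 to 361 (median 160) across the middle-aged and 176 to 281 (median 218) across the old. Here the middle-aged and young animals overlapped, and 5 of the 6 young animals lay within or below the middle-aged range. The log2 fold change was 0.20 ± 0.25 between middle-aged and young animals, 0.28 ± 0.25 between old and young and 0.08 ± 0.25 between old and middle-aged animals (adjusted p in limma = 0.823, 0.762 and 0.907). The remaining probe, ILMN_2379644, was below detection on all 18 arrays at 39 to 52.

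The disagreement of the 2 measured CD74 probes differed with age. Within an animal, the log2 level of ILMN_1736567 minus that of ILMN_1761464 spanned 0.65 to 1.16 for the young, -1.28 to 0.43 for the middle-aged and -0.27 to 0.95 for the old animals. Every young animal lay above every middle-aged one. The old animals fell apart, with replicates 1, 5 and 6 at 0.83 to 0.95 and replicates 2, 3 and 4 at -0.27 to -0.15. The mean difference was -0.14 ± 0.62 in middle-aged and 0.87 ± 0.21 in young animals (SD, n = 6 each), a shift of -1.01 (exact two-sided permutation test, p = 0.00216, the smallest that 6 against 6 allow; adjusted p = 0.0195 over 18 tests of 6 probe pairs). Without young replicate 6 and old replicates 1 and 2 the shift was -1.05 and did not pass the adjustment (exact two-sided permutation test, p = 0.00433, adjusted p = 0.0779). Of those animals only young replicate 6 belongs to this comparison, and every remaining young animal still lay above every middle-aged one. With each single animal left out in turn, this shift passed every time (exact tests, highest adjusted p = 0.0390). The shift was 0.47 between old and middle-aged animals and -0.55 between old and young (adjusted p = 0.422 and 0.358, exact permutation tests). Over the 18 animals the 2 probes correlated at r = 0.46 and rho = 0.43 (adjusted permutation p = 0.0907 and 0.154). A level of CD74 therefore depends on the probe that is read, and no direction of CD74 with age is given here.

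**Figure D3:**
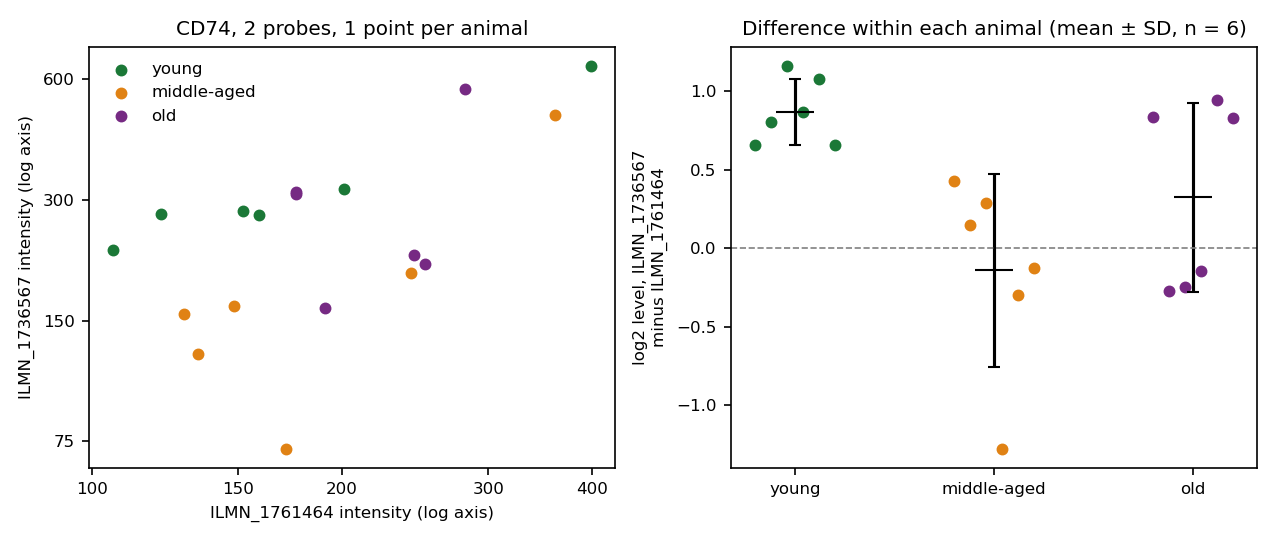
Left, intensity of CD74 probe ILMN_1736567 against ILMN_1761464 (log axes), 1 point per animal. Right, log2 level of the first minus the second in each animal by age with mean ± SD (n = 6): young animals lie at 0.65 to 1.16 and middle-aged animals at -1.28 to 0.43.

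CIITA was at the edge of detection. Its probe, ILMN_1773363, was detected on 3 of the 18 arrays, 1 young and 2 middle-aged, at intensities spanning 83 to 107 for the young, 86 to 125 for the middle-aged and 55 to 116 for the old animals, around the median of an array. It was not tested in the main fit, and without a filter on dim probes its log2 fold change was -0.01 ± 0.11 between old and young and 0.15 ± 0.11 between middle-aged and young animals (adjusted p in limma = 0.994 and 0.789).

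Animals of 1 age differed more in class II RNA than the ages did. The SD of the log2 level within ages had a median of 0.503 over the 8 probes, against 0.203 over all tested probes. It was highest for HLA-DRA ILMN_2157441 (0.669) and CD74 ILMN_1736567 (0.649) and lowest for HLA-DQB1 (0.317). The differences between ages accounted for a median of 3.29% of the variance of the 8 probes, against 14.2% over all tested probes, and for 0.106% for HLA-DMA and 24.6% for CD74 ILMN_1736567. In bulk muscle, fewer cells that carry class II and less class II RNA per cell cannot be told apart.

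The same animals were high for several members. Young replicate 6 was the highest young animal for 7 of the 8 probes and middle-aged replicate 1 the highest of its age for 6, both by log2 level and by intensity. Old replicate 5 led the old animals for 4 probes by log2 level and for 6 by intensity, and old replicate 1 for 2 by log2 level and 0 by intensity. In intensity of HLA-DRA ILMN_2157441, young replicate 6 read 4.28-fold the median of the other 5 young animals, middle-aged replicate 1 3.00-fold and old replicate 5 2.18-fold that of the other 5 of its age. These folds are not scaled between arrays, and the array of young replicate 6 had the highest median intensity of the young, 94. At the low end, middle-aged replicate 3 was the lowest of its age for 6 of the 8 probes by log2 level and for 5 by intensity. Old replicate 4 was the lowest old animal for 4 by log2 level and for 2 by intensity, so the low old animal depends on the scale.

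**Figure D4:**
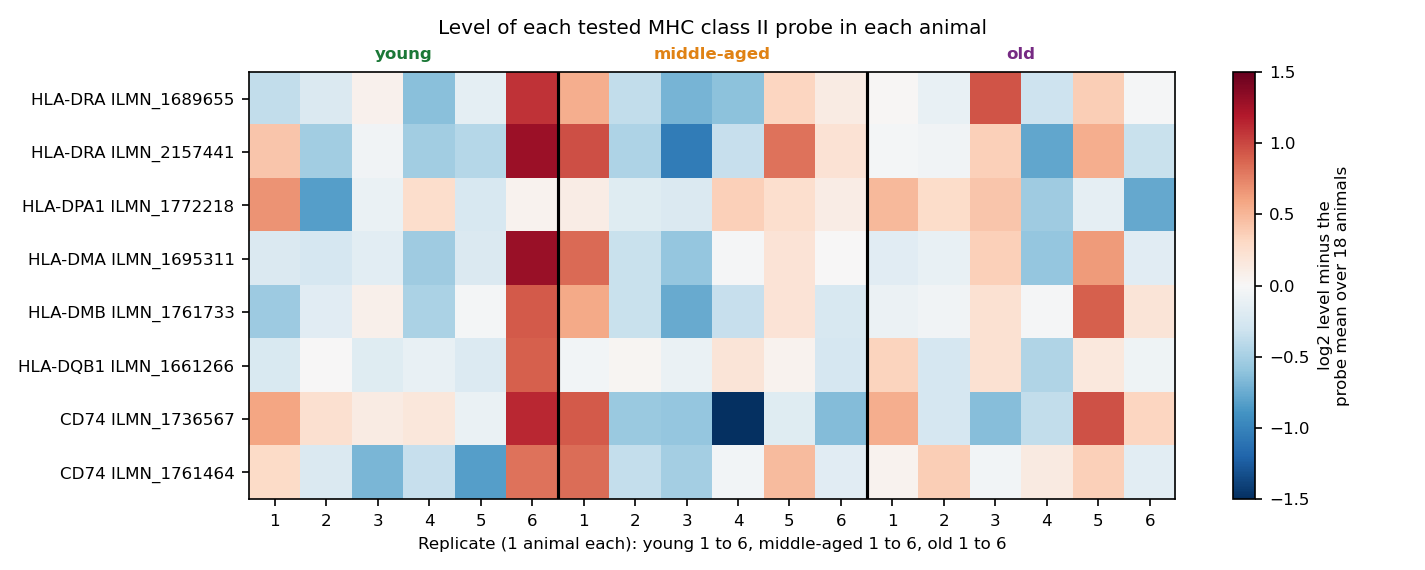
Log2 level of the 8 tested class II probes (rows) in each of 18 animals (columns, grouped by age), minus the mean of the probe. Red is above and blue below the mean: young replicate 6 is in the top 3 of the 18 animals for 7 probes and middle-aged replicate 1 for 6, and HLA-DPA1 has its own order.

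Both HLA-DRA probes, HLA-DMA and HLA-DMB varied together across the 18 animals, with r of 0.73 to 0.90 and rho of 0.64 to 0.89 over their 6 pairs (highest adjusted permutation p = 0.00249 for r and 0.0212 for rho, over 35 relations). Leaving out the 2 animals farthest from the median, r was 0.55 to 0.86. Within ages, on 6 animals each, r spanned 0.69 to 0.98 for the young, 0.85 to 0.96 for the middle-aged and 0.46 to 0.96 for the old. HLA-DPA1 stood outside this group: its r with the other 7 probes was -0.10 to 0.45, and 0 of its 7 pairs passed for r or rho. Of all 28 pairs of the 8 probes, 16 passed for r and 8 for rho. HLA-DQB1 followed HLA-DRA ILMN_1689655 at r = 0.58, and rho = 0.40 (adjusted permutation p = 0.0281 and 0.184), and r was 0.15 without young replicate 6 and old replicate 3, so that relation rests on those animals. With HLA-DMA its r was 0.70 and rho 0.46 (adjusted permutation p = 0.00783 and 0.127), and r was 0.53 without young replicate 6 and middle-aged replicate 1. With HLA-DRA ILMN_2157441 and HLA-DMB, r was 0.54 and 0.53, and 0.31 and 0.13 without the 2 animals farthest from the median.

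Leaving the members themselves out, the genes most like the mean class II level over the 18 animals, among 8589 tested genes, were IL18BP, the decoy of interleukin-18 (r = 0.919), TRIM22 (r = 0.917) and SP110 (r = 0.915), both known as interferon-induced, and ZC3HAV1, an antiviral zinc finger protein (r = 0.893). They were followed by the nuclear receptor NR1H3 (r = 0.871), the macrophage gene AIF1 (r = 0.870), serglycin SRGN (r = 0.869), the lysosomal peptidase PRCP (r = 0.863), the MHC class I light chain B2M (r = 0.855) and PTMA (r = 0.845). These are ranks by likeness and carry no test. The list held none of the 5 genes most like CD74 ILMN_1736567, which were JARID2 (r = 0.798), RALGDS (r = 0.742), CWF19L2 (r = 0.721), TMEM106C (r = 0.719) and BCL7C (r = 0.700).

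Macrophage and endothelial markers went with HLA-DRA, while the r of B cell markers was below 0 and did not pass. The B cell score held only 3 tested genes of 6 listed, MS4A1, CD79A and CD79B. Their mean intensities were 102 to 117, near the median of an array, so this score says little about B cells. The summed intensity of the 10 tested macrophage markers, of 15 listed, spanned 1478 to 7571 for the young, 1592 to 5857 for the middle-aged and 2228 to 5290 for the old animals. TYROBP, FCER1G, MRC1, ITGAM and MSR1 of that list were not tested. HLA-DRA ILMN_2157441 followed the macrophage score, the mean centred log2 level of the list, at r = 0.69 and rho = 0.62 (adjusted permutation p = 0.00591 and 0.0250), and r was 0.55 without young replicate 6 and middle-aged replicate 1. It followed the score of 7 endothelial markers at r = 0.78 and rho = 0.67 (adjusted permutation p = 0.00117 and 0.0148), with r = 0.58 without the same animals and r = 0.02 within the old animals. For muscle fibre markers r was -0.38 and rho -0.31 (adjusted permutation p = 0.159 and 0.288), and for B cell markers r was -0.43 and rho -0.53 (adjusted permutation p = 0.113 and 0.0722). For fibroblast and matrix markers r was 0.53 and rho 0.37 (adjusted permutation p = 0.0459 and 0.201), and r was 0.30 without those animals. The part of these cells in the class II levels was not tested. Of the T cell markers, 0 of the 6 with a probe could be tested, and of the dendritic cell markers 2 of 8, XCR1 and LAMP3, whose r with the mean class II level was 0.156 and -0.239. The medians of the macrophage list were 0.21 between old and young, 0.35 between old and middle-aged and -0.08 between middle-aged and young animals, with 0 of 10 genes called in each.

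**Figure D5:**
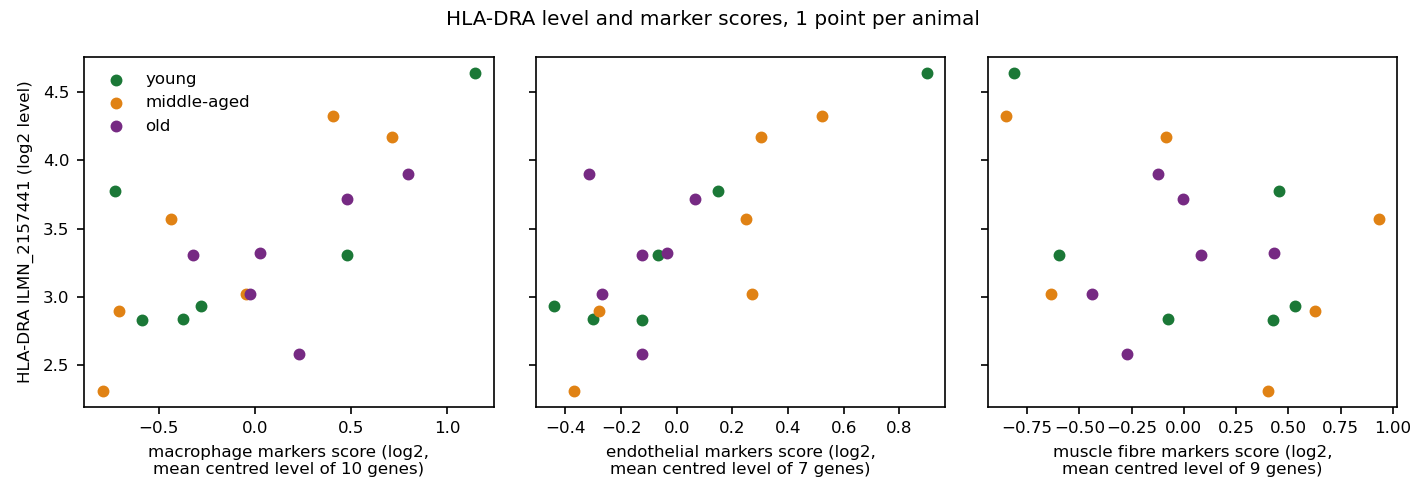
Log2 level of HLA-DRA ILMN_2157441 (vertical axis) against the mean centred log2 level of macrophage, endothelial and muscle fibre markers (horizontal axes), 1 point per animal. Over all 18 animals r is 0.69 for the macrophage, 0.78 for the endothelial and -0.38 for the muscle fibre score. Within the old animals r is 0.02 for the endothelial score, which spans -0.317 to 0.065 there. Old replicate 5, the old animal highest for this probe, has the lowest of these scores. The reason for the low r was not tested.

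Other class II chains gave 12 probes, of which 7 were tested, and 0 of the 7 passed in each comparison. The nearest was HLA-DRB4 ILMN_1679617, at 127 to 165 in old (median 143), against 148 to 210 in middle-aged animals (median 179). The log2 fold change was -0.46 ± 0.13 (adjusted p in limma = 0.0832), while HLA-DRB4 ILMN_2159694 gave 0.31 ± 0.16 (adjusted p in limma = 0.333) and HLA-DRB4 ILMN_1752592 -0.08 ± 0.20. The first minus the second was 0.05 ± 0.19 in old and 0.82 ± 0.34 in middle-aged animals (SD, n = 6 each), a shift of -0.77 (exact two-sided permutation test, p = 0.00216, adjusted p = 0.0195), and it was -0.74 with young replicate 6 and old replicates 1 and 2 left out (exact test, adjusted p = 0.0857). With each single animal left out in turn, the shift passed every time (exact tests, highest adjusted p = 0.0390). This shift and that of CD74 were the only 2 of 18 tests of probe pairs that passed on all animals. HLA-DRB4 and the related HLA-DRB3 are carried on only some human haplotypes and HLA-DRB6 is a pseudogene, and probes of such near-identical genes can bind each other's transcripts, so a DRB value is not tied to 1 locus.

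No gene of the pathway around class II passed in any comparison by its brightest tested probe. Results of further tested probes, as for CREB1 with 4 tested, are not given here. All 7 promoter factors (RFX5, RFXAP, RFXANK, NFYA, NFYB, NFYC and CREB1), which recruit CIITA to class II promoters, were tested. CREB1 had the smallest p, with a log2 fold change of 0.51 ± 0.12 between middle-aged and young animals (adjusted p in limma = 0.198), and RFXAP had 0.23 ± 0.07 between old and middle-aged animals (adjusted p in limma = 0.125). Among the interferon-gamma signalling genes, 3 of 7 were tested, and the receptor chain IFNGR1 followed the class II mean at r = 0.820, against -0.692 for IFNGR2. The kinase JAK1 had 0.29 ± 0.17 between old and middle-aged animals (adjusted p in limma = 0.396).

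Of 9 endosomal processing genes 7 were tested. The protease CTSB had a log2 fold change of 0.36 ± 0.18 between middle-aged and young animals (adjusted p in limma = 0.498), and LGMN, asparaginyl endopeptidase, had 0.25 ± 0.16 between old and middle-aged animals (adjusted p in limma = 0.428). CTSS, which cuts the last part of the invariant chain in antigen-presenting cells, was not tested. SPPL2A, the intramembrane protease that clears the CD74 remnant, had 0.30 ± 0.14 between old and young animals (adjusted p in limma = 0.451). For the costimulators CD86 and CD83 the values were -0.18 ± 0.13 between old and middle-aged animals and 0.10 ± 0.11 between middle-aged and young animals (adjusted p in limma = 0.503 and 0.798). Among the marker lists, also read by the brightest tested probe of a gene, 4 genes passed: 3 globins and FCGR3B. The latter is a neutrophil Fc receptor in humans and the only 1 of 6 listed neutrophil markers that was tested. Whether its probe reads neutrophils in rhesus monkeys was not tested. FCGR3B had a log2 fold change of -0.56 ± 0.11 between old and middle-aged animals (adjusted p in limma = 0.0267). It no longer passed without middle-aged replicate 3, 4 or 5 or old replicate 4 or 6, taken out 1 at a time (log2 fold changes -0.56 to -0.50; highest adjusted p in limma = 0.0701), and its probe may also bind the near-identical FCGR3A. The globins HBA1, HBA2 and HBB had log2 fold changes of 3.58 to 4.16 between old and young animals (adjusted p in limma = 0.0314 for each). With young replicate 6 and old replicates 1 and 2 left out, they were 2.91 to 3.50 and did not pass (adjusted p in limma = 0.0548 to 0.0646). The call was also lost for all 3 genes without any 1 of young replicates 2 to 5 or old replicates 1, 2, 3 and 6, and for HBA1 and HBA2 without young replicate 1 (highest adjusted p in limma = 0.0829). HBA1 and HBA2 encode the same protein, and their probes may not tell them apart. The erythrocyte score had r = -0.05 and rho = -0.07 with HLA-DRA ILMN_2157441 (adjusted permutation p = 0.844 and 0.798).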

How the data were processed

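Trizol RNA was amplified with the TotalPrep kit by the authors, who read the arrays with GenomeStudio 2011.1 and deposited the probe intensities without normalization. Whether a background was subtracted is not given in the sources used here, nor is the chip of each array. The deposited detection p-value compares a probe with negative controls. Deposited too were Z scores, natural log intensities centred and scaled per array by the authors, which differed from Z scores recomputed here by at most 0.0184.

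To read as log2 fold changes, Z scores were scaled by 1.19, the average array SD of log2 intensity. The 14188 probes detected at p under 0.05 on 6 or more arrays entered 1 limma fit of the 3 ages (version 3.58.1, under R 4.3.3), with p-values adjusted over all of them by Benjamini-Hochberg and a threshold of 0.05. Members and lists were chosen with earlier results of these data known. Every member was named. Genes of the pathway and marker lists were read by their brightest tested probe. Of other lists, genes that passed were named, or up to 2 by smallest p, and the genes most like the class II mean by r. The within-animal difference of 2 probes was tested by exact permutation, and correlations by 100000 permutations (Python 3.11.15, numpy 2.4.6), adjusted over 35 relations. The fit was tested on simulated data. Replicate numbers did not pair the animals. Alternatives were quantile normalization, neqc with an offset of 16, the authors' processed values, other filters on dim probes, the brightest probe per gene, array weights, the replicate block, eBayes with trend, 2 ages only, 15 animals, the methods' t-test and leaving out each animal. The limma p-values set a difference between ages against the spread between animals of an age. The permutation p-values come from reshuffling animals.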

Additional observations from a re-analysis of the deposited data

Results flagged for a closer look

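In 24 combinations of a tested class II probe and an age, 3 held 1 animal whose gap to the next was larger than Dixon's 95% limit for 6 animals, and chance alone flags about 1 in 20. HLA-DMA ILMN_1695311 read 1629 in young replicate 6, against 373 to 495 in the other 5 young animals. HLA-DQB1 ILMN_1661266 read 267 in the same animal, against 90 to 120 in the other 5. HLA-DMB ILMN_1761733 read 477 in old replicate 5, against 180 to 262 in the other 5 old animals. Both animals were high for both HLA-DRA probes as well.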

How the results depend on the processing

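Every count of class II probes called was 0 under all 125 alternative counts, and the 24 fold changes gave 708 alternative values with a lowest adjusted p of 0.159. Of the 708, 65 had another sign than the value reported, and 0 moved by more than the SD within ages. The median fold change of the class II probes was -0.16 to 0.25 over 90 alternatives and changed sign in 18. When each animal was left out in turn, it was -0.07 to 0.22 between old and young, -0.02 to 0.19 between old and middle-aged and -0.16 to 0.13 between middle-aged and young animals. With the replicate block, 0 class II probes were called and the counts over all probes were 0, 23 and 0, against 27, 124 and 3 without it. The numbers do not pair the animals. The background itself moved. Over all settings but the t-test and leaving out each animal, the replicate block included, 0 to 120 probes were called between old and young. The counts were 23 to 204 between old and middle-aged and 0 to 30 between middle-aged and young animals. When an animal was left out, they were 1 to 112, 7 to 204 and 1 to 7. The methods' t-test at the study's thresholds called 1015, 1495 and 1032 probes and after Benjamini-Hochberg 0, 16 and 0, none of them class II. On 15 animals the shift between the CD74 probes was -1.05 (exact test, adjusted p = 0.0779) and that between the HLA-DRB4 probes -0.74 (exact test, adjusted p = 0.0857), and neither shift passed. With each animal left out in turn they were -1.13 to -0.79 and -0.86 to -0.68, and both passed every time (exact tests, adjusted p = 0.0195 to 0.0390 for each). The HLA-DRB4 shift between old and young animals, -0.65 to -0.40, passed without young replicate 6. Dim probes limit what could be read: 4 of 12 class II probes, among them those of HLA-DRB1, HLA-DPB1 and CIITA, were not tested. After the data had been seen, the 4 marker genes that passed were refitted with each animal left out in turn, and the call was lost in 9 of 18 refits for HBA1, 9 for HBA2, 8 for HBB and 5 for FCGR3B, with no change of sign.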
